A study of Mus musculus with 6 samples.

Results

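The genes described here are 10 regulators of the integrated stress response: the transcription factors Atf4, Atf5, Atf3, Ddit3, Cebpb and Cebpg, and the effectors and feedback genes Ppp1r15a, Trib3, Chac1 and Nupr1. They were chosen by name, as the rows of the authors' deposited table whose gene column equals a listed symbol, and each symbol gave 1 row. The members and the other gene lists below were chosen with earlier results of these data known, so their counts are descriptions only. These are 10 of 37757 rows in all and of 14748 rows that the authors tested. Messenger RNA was sequenced from kidney epithelial cells of mice 8 weeks old, strain C57/Bl6J, in 2 groups of 3 libraries: cells grown attached, and cells kept for 4 h without attachment, whose titles use the word anoikis (death on loss of anchorage). Both groups are labelled with the genotype Bim-/- Bmf-/-, so by these labels the attached controls lack the same pair of death-promoting genes, and no cells with intact Bim and Bmf were used as a comparison here. The comparison asks how transcripts differ between these culture conditions. Each gene has 1 value per condition, an FPKM (fragments scaled to transcript length and library size), and the authors' own test adds a fold change with its p and q. Suspension was read from a condition name ending in S, and attachment from one ending in A. The letter A alone would fit the titles of both groups, since anoikis also begins with it. The direction of every change below therefore rests on reading S as suspension, the word used in the sample descriptions. Bim and Bmf both have values in the authors' deposited table. Bcl2l11, which encodes Bim, was called higher (at a q below 0.05), from 9.53 FPKM attached to 51.4 FPKM suspended (q = 0.000185, the authors' deposited table), and Bmf had 2.95 and 4.30 FPKM and was not called (q = 0.287, the authors' deposited table). A value for a whole gene cannot show which exons are present, so these do not check the label. Libraries are not shown singly, which leaves the spread between replicates and the depth unknown. The labels do not say whether libraries came from separate cultures or animals, and a p may then measure technical spread only.

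The integrated stress response is the program by which cells slow protein synthesis under stress. Kinases that sense unfolded proteins in the endoplasmic reticulum, missing amino acids, double-stranded RNA or lack of haem phosphorylate the initiation factor eIF2 on its alpha subunit. Most translation then falls, while the messenger RNAs of Atf4, Atf5, Ddit3 and Ppp1r15a, which carry short upstream reading frames, are known to be translated better. ATF4 protein pairs with C/EBP proteins and switches on genes of amino acid supply as well as Ddit3, Trib3, Chac1 and Atf3. In tubule cells of the kidney the program is best known from injury and toxic stress. What was measured here is messenger RNA, which for Atf4 in particular is not the protein level.

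The element that ATF4 and C/EBP proteins are known to bind together was searched for in the promoters of the members, since these stretches show that members of unlike behaviour share it. Promoters were taken from RefSeq (GRCm38.p6), from 250 bases before to 50 bases after each start. All 10 members matched, with 11 promoters because Atf5 has 2. The motif TGATGNAA, on either strand, was in the promoters of 4 members, Atf3, Chac1, Nupr1 and Trib3, and in 3.97% of the 32851 promoters in the table. The stretches are printed 5′ to 3′ on the strand of the gene, with the motif in capitals, and all 4 matches are on the opposite strand of the motif as written above:
Atf3, chr1:191183410-191183469, minus strand: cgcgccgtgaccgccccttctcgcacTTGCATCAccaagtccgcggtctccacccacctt
Chac1, chr2:119351023-119351082, plus strand: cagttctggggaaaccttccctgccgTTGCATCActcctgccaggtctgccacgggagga
Nupr1, chr7:126625547-126625606, minus strand: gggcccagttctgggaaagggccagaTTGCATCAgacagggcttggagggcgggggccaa
Trib3, chr2:152344028-152344057, minus strand: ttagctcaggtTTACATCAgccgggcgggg

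The match begins 110 bases before the RefSeq start in both Atf3 and Nupr1, and 193 bases before it in Chac1. In Trib3 it begins at base 15 after the RefSeq start. The longer form TGATGCAAT, which contains the first motif, was found only in Nupr1 among the members and in 0.192% of all promoters. Ppp1r15a alone among the members held the palindromic cAMP response element TGACGTCA, a site of ATF and CREB proteins, beginning 12 bases before the start. That element was in 1.79% of all promoters. The last 60 bases before the start of Ppp1r15a hold it near their end:
Ppp1r15a, chr7:45526269-45526328, minus strand: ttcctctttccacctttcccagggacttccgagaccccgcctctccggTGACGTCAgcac

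Its 5-letter core TGACG, part of the palindrome on both strands, was in the promoters of 6 members (Atf3, Atf4, Cebpb, Chac1, Ppp1r15a and Trib3) and in 20.8% of all promoters. The core of the endoplasmic reticulum stress element, CCACG, was in those of 7 members (Atf4, Atf5, Cebpb, Cebpg, Chac1, Nupr1 and Ppp1r15a) and in 32.8% of all promoters. A match is a run of letters, not a bound site, and Ddit3 had none of the 5 motifs in this window.

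The members split into a rising and a falling group in suspension. Atf3, Ppp1r15a, Ddit3 and Cebpb rose by 3.25-fold to 7.67-fold. Nupr1, Chac1, Atf5 and Atf4 fell, of which Nupr1 alone passed 2-fold, and Trib3 and Cebpg were not called. A gene is called here when the authors' q is below 0.05. By that rule 8 of 10 members were called, against 51.0% of all tested rows. The 4 higher members make 40% of the list against 24.7% of all tested rows called higher, and the 4 lower members 40% against 26.3% called lower. With a 2-fold change also required, 4 members were higher against 12.4% of tested rows, and 1 was lower against 7.12%. The median log2 fold change of the members was 0.22 and that of all tested rows -0.03. In a bulk sample fewer cells expressing a gene and less RNA of it per cell cannot be told apart.

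**Figure D1:**
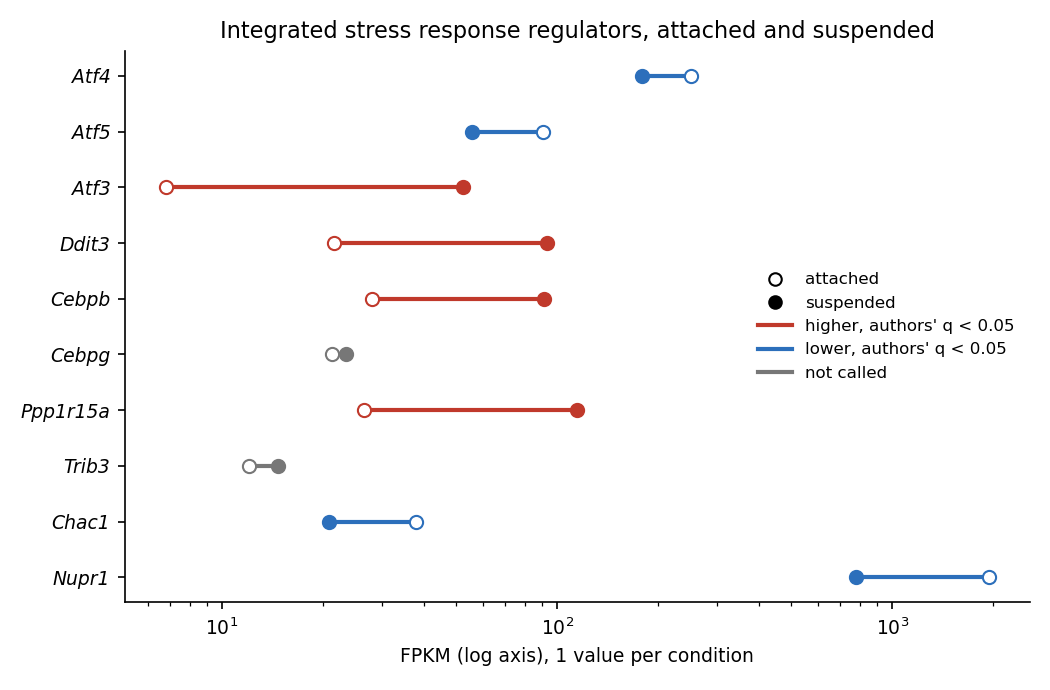
FPKM of each member on a log axis, a pair of circles per gene from the authors' deposited table (open attached, filled suspended) and lines coloured by the authors' call. Atf3 moved from 6.80 to 52.2 FPKM, Nupr1 from 1938 down to 778, and Trib3 and Cebpg, in grey, were not called.

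Atf4, the basic leucine zipper factor at the centre of the response, was the second most abundant member in both conditions. The authors' deposited table gives it 250 FPKM attached and 180 FPKM suspended. It fell 1.39-fold (log2 -0.48, q = 0.000185, the authors' deposited table), the smallest change among the called members. The gene lies on chromosome 15, positions 80255184 to 80257541, plus strand (GENCODE M21, GRCm38, as are all gene positions below), and overlaps no other annotated gene. Atf5, a close relative of ATF4 that is also linked to stress of mitochondria, stood at 90.5 FPKM attached and 55.6 FPKM suspended (the authors' deposited table). It fell 1.63-fold (log2 -0.70, q = 0.000185, the authors' deposited table). The ratio of Atf4 to Atf5 was 2.77 attached and 3.23 suspended, a change of 1.17-fold.

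Atf3, a stress-inducible factor that mostly represses through ATF sites, was the least abundant member in attached cells. In the authors' deposited table it stood at 6.80 FPKM attached and 52.2 FPKM suspended. It rose 7.67-fold (log2 2.94, q = 0.000185, the authors' deposited table), and its log2 fold change exceeded that of 96.0% of tested rows. Atf3 spans chromosome 1, positions 191170296 to 191218039, minus strand, so the motif printed above lies inside the GENCODE gene although before the RefSeq start. Relative to Atf4, Atf3 transcript was 36.8 times lower in attached and 3.44 times lower in suspended cells.

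Among the C/EBP factors, Ddit3 encodes CHOP, which is known to promote death under long stress. The authors' deposited table lists Ddit3 at 21.6 FPKM attached and 93.4 FPKM suspended, a 4.33-fold rise (log2 2.11, q = 0.000185). Per length, Ddit3 stood 11.6 times below Atf4 in attached and 1.92 times below it in suspended cells. Cebpb, a partner of both ATF4 and CHOP, stood at 28.0 FPKM attached and 91.2 FPKM suspended (the authors' deposited table). It rose 3.25-fold (log2 1.70, q = 0.000185, the authors' deposited table). After suspension the levels of Ddit3 and Cebpb lay close together, with a ratio of 1.02, from 0.770 in attached cells.

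Cebpg, a short C/EBP protein that is thought to act mainly through its dimer partners such as ATF4, showed 21.3 FPKM attached and 23.5 FPKM suspended (p = 0.2285, q = 0.330, the authors' deposited table). It was not called. A rough interval, which takes the authors' p as a normal quantile, puts the fold between 0.940 and 1.30 (95%). The authors' test score, 0.676, is smaller than that quantile, so an interval taken from the score would be wider. Cebpb was 1.32 times as abundant as Cebpg in attached and 3.88 times in suspended cells. Cebpg (chromosome 7, positions 35046422 to 35056573, minus strand) has a neighbour of its own family: Cebpa lies 62719 bases away (positions 35119293 to 35121928). Cebpa rose from 1.14 FPKM attached to 23.5 FPKM suspended (the authors' deposited table), a 20.6-fold change, and so reached the level of Cebpg.

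Ppp1r15a encodes GADD34, which brings protein phosphatase 1 to eIF2 and reverses the phosphorylation of its alpha subunit. Its transcript had, in the authors' deposited table, 26.4 FPKM attached and 115 FPKM suspended, a 4.35-fold rise (log2 2.12, q = 0.000185). It went from the sixth to the third most abundant member. Ppp1r15b, whose product does the same without needing stress to be made, fell from 31.4 FPKM attached to 23.3 FPKM suspended (q = 0.000676, the authors' deposited table). The ratio of Ppp1r15a to Ppp1r15b was 0.843 attached and 4.93 suspended.

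Trib3, a pseudokinase that binds ATF4, CHOP and the kinase AKT, had 12.0 FPKM attached and 14.7 FPKM suspended (the authors' deposited table). It was not called (p = 0.03105, q = 0.0625, the authors' deposited table), and the rough interval of its fold, taken from that p, runs from 1.02 to 1.47 (95%). The authors' test score was 1.23, smaller than the normal quantile of that p. An interval taken from the score would be wider and would include no change. Trib3 lies on chromosome 2, positions 152337422 to 152344032, minus strand, so the motif printed above lies inside the RefSeq transcript but upstream of the GENCODE gene. Chac1, an enzyme that degrades glutathione, stood at 37.9 FPKM attached and 20.9 FPKM suspended (the authors' deposited table). It fell 1.81-fold (log2 -0.86, q = 0.000185, the authors' deposited table). Chac1 lies on chromosome 2, positions 119351229 to 119354381, plus strand. Nupr1, a small chromatin-associated stress protein, was the most abundant member, at 1938 FPKM attached and 778 FPKM suspended (the authors' deposited table). It fell 2.49-fold (log2 -1.32, q = 0.000185, the authors' deposited table), and only 5.0% of tested rows had a lower log2 fold change. Even so its level stayed above that of 99.7% of tested rows. Nupr1 lies on chromosome 7, positions 126623249 to 126630861, minus strand, so its printed motif also lies inside the GENCODE gene although before the RefSeq start.

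**Figure D2:**
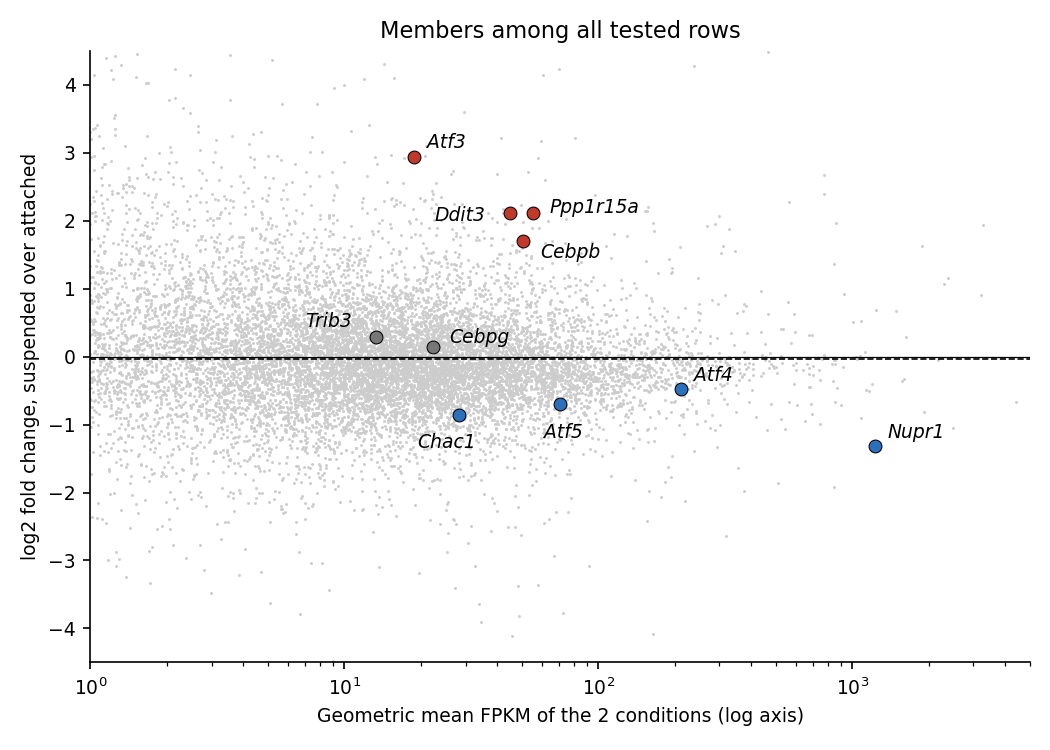
Log2 fold change (suspended over attached) against the geometric mean FPKM of the conditions on a log axis, with tested rows in grey, members coloured by call (red higher, blue lower, grey not called) and the median of all tested rows (-0.03) dashed. Rows outside the axes are not drawn; Atf3, Ddit3, Ppp1r15a and Cebpb lie at or above 1.70, and Nupr1 is the lowest member at -1.32.

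The order of the members changed while its extremes drew closer. The highest member exceeded the lowest 285-fold in attached cells (Nupr1 over Atf3) and 52.9-fold in suspended cells (Nupr1 over Trib3). In suspension Ppp1r15a, Ddit3 and Cebpb stood above Atf5, which had been above all of them in attached cells. Without the spread between libraries, neighbours in this order, such as Cebpg and Ddit3 in attached cells, at 21.3 and 21.6 FPKM (the authors' deposited table), cannot be separated. The members that hold the composite motif did not move together: Atf3 rose, Chac1 and Nupr1 fell and Trib3 was not called. The stretch TTGCATCA was the same in Atf3, Chac1 and Nupr1.

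Some values carry limits of their own. The 8 called members share the smallest p of the authors' deposited table, 5e-05, with 4278 tested rows, so their q does not rank them. Of the 10 members, 4 overlap another protein-coding gene on the opposite strand, and whether strand was counted is not given in the sources used here. Ddit3 (chromosome 10, positions 127290774 to 127296288) shares 68 bases with Mars, which fell from 72.6 to 27.7 FPKM (the authors' deposited table) while Ddit3 rose. Cebpb (chromosome 2, positions 167688915 to 167690418) shares 908 bases with Tmem189. The row of Tmem189, merged with Ube2v1 and Gm20431, had 65.1 FPKM attached and 56.7 FPKM suspended (q = 0.247, the authors' deposited table). Cebpb had 28.0 and 91.2 FPKM (the authors' deposited table), and the part of that row in these values was not tested. Atf5 (chromosome 7, positions 44812256 to 44816658) shares 571 bases with Nup62. The row of Nup62 and Il4i1 fell as Atf5 did, from 41.8 to 28.9 FPKM (q = 0.00852, the authors' deposited table), and its part in the Atf5 value was not tested. Ppp1r15a (chromosome 7, positions 45522916 to 45526268) overlaps Tulp2, which stood at 0.0556 and 0.0360 FPKM (the authors' deposited table).

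Paralogs of the members moved in both directions. From here on, a gene called higher or lower and given without its q has the smallest one, 0.000185. For every list count below, the shares over all tested rows are 24.7% called higher and 26.3% called lower. Among other ATF and CREB genes 5 of 13 tested rose, 2 fell and 6 were not called, with a median log2 fold change of 0.43. Jdp2, a close relative of Atf3 and like it a repressor at AP-1 and ATF sites, fell from 23.1 FPKM attached to 7.88 FPKM suspended (the authors' deposited table). Atf3 therefore went from 3.40 times below Jdp2 to 6.63 times above it. Creb5 rose most in this family, from 1.04 FPKM attached to 9.47 FPKM suspended (the authors' deposited table). Atf2, a factor activated by stress kinases, rose from 33.5 to 50.9 FPKM and Crem from 21.2 to 28.5 FPKM (q = 0.0178, the authors' deposited table). Creb3l1 (0.138 to 0.675 FPKM) and Creb3l4 (1.18 to 2.35 FPKM, q = 0.00143) also rose, from low levels (the authors' deposited table). Creb3l2, a membrane-bound factor, fell from 14.6 to 10.7 FPKM (q = 0.000676, the authors' deposited table).

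Atf1 (16.2 and 23.1 FPKM), Atf6 (21.5 and 23.5), Atf6b (32.6 and 29.1), Creb1 (9.49 and 11.1), Creb3 (21.8 and 23.8) and Batf3 (0.180 and 0.372 FPKM) were not called (the authors' deposited table). Batf, Batf2 and Creb3l3 were not tested and stayed at or below 0.164 FPKM (the authors' deposited table). Atf7 stands in a row merged with Npff, which was called higher (11.0 to 22.2 FPKM, the authors' deposited table) and is not counted here. Of the other C/EBP genes Cebpd, an acute-phase factor, rose from 4.21 to 14.3 FPKM (the authors' deposited table), keeping a ratio to Cebpb of 0.150 attached and 0.156 suspended. Cebpz, listed with them by name only, fell from 14.6 to 11.5 FPKM (q = 0.0237, the authors' deposited table), and Cebpe was not tested.

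Among the remaining paralogs Chac2 fell with Chac1, from 26.9 to 19.4 FPKM (q = 0.0144, the authors' deposited table). The ratio of Chac1 to Chac2 was 1.41 attached and 1.08 suspended. Trib1 rose from 9.97 to 13.4 FPKM (q = 0.00254) and Trib2 fell from 6.73 to 3.42 FPKM (the authors' deposited table). Nupr1l, a paralog of Nupr1, was not called and stood at 0.201 and 0.316 FPKM (the authors' deposited table).

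**Figure D3:**
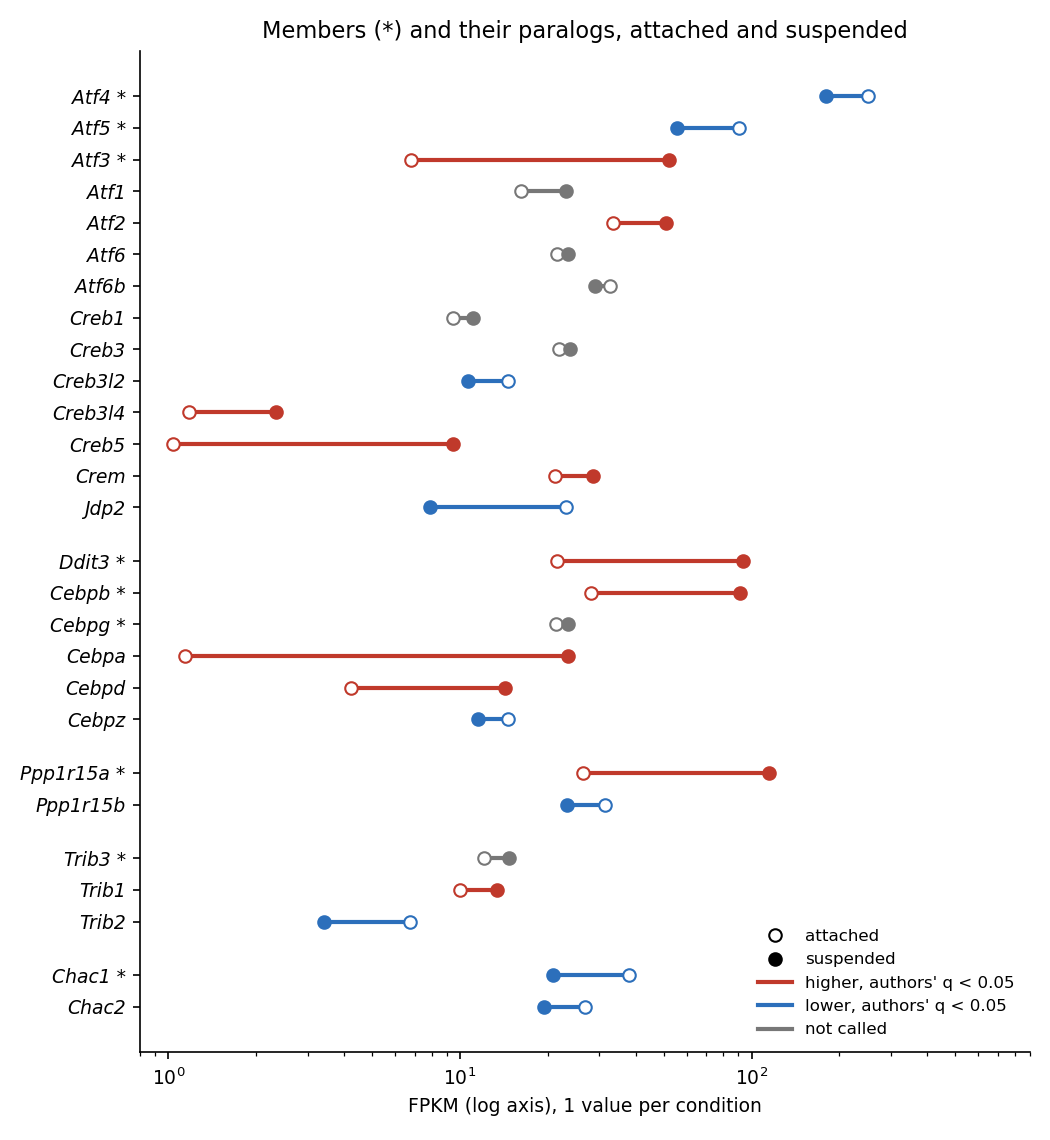
FPKM on a log axis, grouped by family, for the members other than Nupr1 (asterisk). Tested paralogs with a row of their own and at least 1 FPKM in both conditions are also drawn. Open circles are attached, filled circles suspended, and lines are coloured by the authors' call. Atf3 and Jdp2 run in opposite directions, as do Ppp1r15a and Ppp1r15b, while Chac1 and Chac2 both fell.

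Upstream of the members, the kinases of eIF2 split. Eif2ak3 (PERK, the sensor in the endoplasmic reticulum) rose from 31.4 FPKM attached to 70.5 FPKM suspended (the authors' deposited table). Eif2ak4 (GCN2, the sensor of missing amino acids) fell from 11.9 to 6.72 FPKM and Eif2ak2 (PKR, the sensor of double-stranded RNA) from 13.6 to 9.71 FPKM (q = 0.000355, the authors' deposited table). Eif2ak1 (HRI, the haem-regulated kinase) was not called, at 14.7 and 17.0 FPKM (q = 0.182, the authors' deposited table). The ratio of Eif2ak3 to Eif2ak4 was 2.63 attached and 10.5 suspended. Of 7 genes known to help or hinder these kinases 2 rose, 3 fell and 2 were not called, with a median log2 fold change of -0.26. Impact, an inhibitor of GCN2, rose from 9.34 to 45.6 FPKM (the authors' deposited table). Gcn1l1, the co-activator of GCN2, fell from 32.4 to 17.9 FPKM (the authors' deposited table). Dele1 (listed as 0610009O20Rik), which relays mitochondrial stress to HRI, rose from 12.1 to 23.5 FPKM, and Oma1, the protease that cuts DELE1, fell from 6.08 to 4.42 FPKM (q = 0.0308, the authors' deposited table).

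The target of the kinases and its exchange factor leaned lower. Of 8 genes for subunits of eIF2 and eIF2B 5 fell and 3 were not called, against 26.3% of all tested rows called lower. All 8 stood lower in suspended cells, and the median log2 fold change was -0.57 against -0.03 over all tested rows. Eif2b3 fell from 7.09 to 3.96 FPKM and Eif2s2 from 49.4 to 29.0 FPKM (q = 0.000355, the authors' deposited table). Eif2s1, the alpha subunit itself, fell from 37.9 to 24.5 FPKM and Eif2b1 from 21.9 to 13.3 FPKM (the authors' deposited table). Of 6 genes for proteins that work with GADD34, 1 rose, 4 fell and 1 was not called (median log2 fold change -0.38). The phosphatase catalytic genes Ppp1cc (103 to 62.4 FPKM) and Ppp1ca (266 to 190 FPKM) fell, and Ppp1cb (67.3 to 96.2 FPKM, q = 0.0186) rose (the authors' deposited table). Actb, whose actin product takes part in that phosphatase complex, fell from 930 to 517 FPKM (the authors' deposited table).

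Known targets of ATF4 differed by class. All 12 of the aminoacyl-tRNA synthetase genes listed, which charge transfer RNAs with amino acids, fell, against the 26.3% of all tested rows called lower (median log2 fold change -0.83, range -1.52 to -0.28). Yars fell from 18.5 to 6.45 FPKM, Mars from 72.6 to 27.7, Wars from 107 to 44.5 and Iars from 67.4 to 31.9 FPKM (the authors' deposited table). Of 11 genes of amino acid and one-carbon synthesis 9 fell and 2 were not called, against the same 26.3%. All 11 stood lower in suspended cells (median -1.13). Cth, of the transsulfuration route, fell from 12.7 to 4.11 FPKM and the mitochondrial folate enzyme Mthfd2 from 64.0 to 22.6 FPKM (the authors' deposited table). Psat1, of serine synthesis, fell from 143 to 52.9 FPKM and Aldh18a1, of proline synthesis, from 34.6 to 13.9 FPKM (the authors' deposited table).

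Amino acid transporters went both ways, with 3 of 8 tested higher, 2 lower and 3 not called (median 0.34). Slc1a4, a carrier of neutral amino acids, rose from 19.9 to 89.7 FPKM and Slc3a2, a shared heavy chain, from 91.4 to 117 FPKM (q = 0.00213, the authors' deposited table). Slc7a1, a carrier of cationic amino acids, fell from 59.4 to 18.1 FPKM (the authors' deposited table). Slc7a11, a cystine carrier that other stress factors also induce, had the highest log2 fold change in the class, 4.10. Among 12 other targets, which include Jdp2 already counted with the ATF and CREB genes, 6 rose, 4 fell and 2 were not called (median 0.24). Stc2, a secreted glycoprotein, fell from 5.38 to 1.31 FPKM (the authors' deposited table), while Ndrg1 and Sqstm1 rose by 4.24 and 2.68 on the log2 scale. The 2 not called were Gdf15, at 866 and 840 FPKM (q = 0.762), and Ddit4, at 96.0 and 98.4 FPKM (q = 0.810, the authors' deposited table).

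The composite motif TGATGNAA was also looked for in these targets. It was in the promoters of 5 of the 7 synthetase genes that had an entry (Aars, Gars, Iars, Tars and Yars), all of which fell (Aars at q = 0.00945, the authors' deposited table). Of 6 transporter genes with an entry 2 held it, Slc7a11 and Slc1a4, which rose. Of 10 synthesis genes 2 held it, Asns, which fell, and Pycr1, which was not called. Of 9 other targets 3 held it, Fgf21 (q = 0.0497) and Jdp2, which fell, and Vldlr (q = 0.00227), which rose (the authors' deposited table). Of the CHOP targets with an entry, 1 of 7 held it, Trib3.

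Of 9 tested CHOP targets 5 rose, 1 fell and 3 were not called, with a median log2 fold change of 0.95. Over all tested rows 24.7% were called higher and 26.3% lower. The list includes the members Ppp1r15a and Trib3, which were not independent of it. Bcl2l11, labelled as deleted, is among the 5 and has the largest change of them, 2.43 on the log2 scale. Bbc3, which encodes the death protein PUMA, rose 3.51-fold, and Bcl2, a survival gene that CHOP is known to lower, fell by 1.52 on the log2 scale. Besides Trib3, the targets not called were Ero1l, at 31.8 and 27.9 FPKM (q = 0.145), and Tnfrsf10b, at 36.7 and 38.1 FPKM (q = 0.715, the authors' deposited table). The other arms of the unfolded protein response, run by IRE1 and ATF6, had 4 of 18 genes higher, 7 lower and 7 not called (median -0.15). This list shares Atf6 with the ATF and CREB genes and Dnajc3 with the genes that help or hinder the kinases. Ern1, which encodes IRE1, rose from 7.15 to 13.5 FPKM (the authors' deposited table). Dnajb9 rose by 1.89 on the log2 scale, and Hyou1 fell by 0.97. Sdf2l1 fell from 11.1 to 7.66 FPKM (q = 0.00476, the authors' deposited table). Hspa5, the main chaperone of the endoplasmic reticulum, was not called and is named after its values were seen, at 225 and 258 FPKM (q = 0.116, the authors' deposited table).

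**Figure D4:**
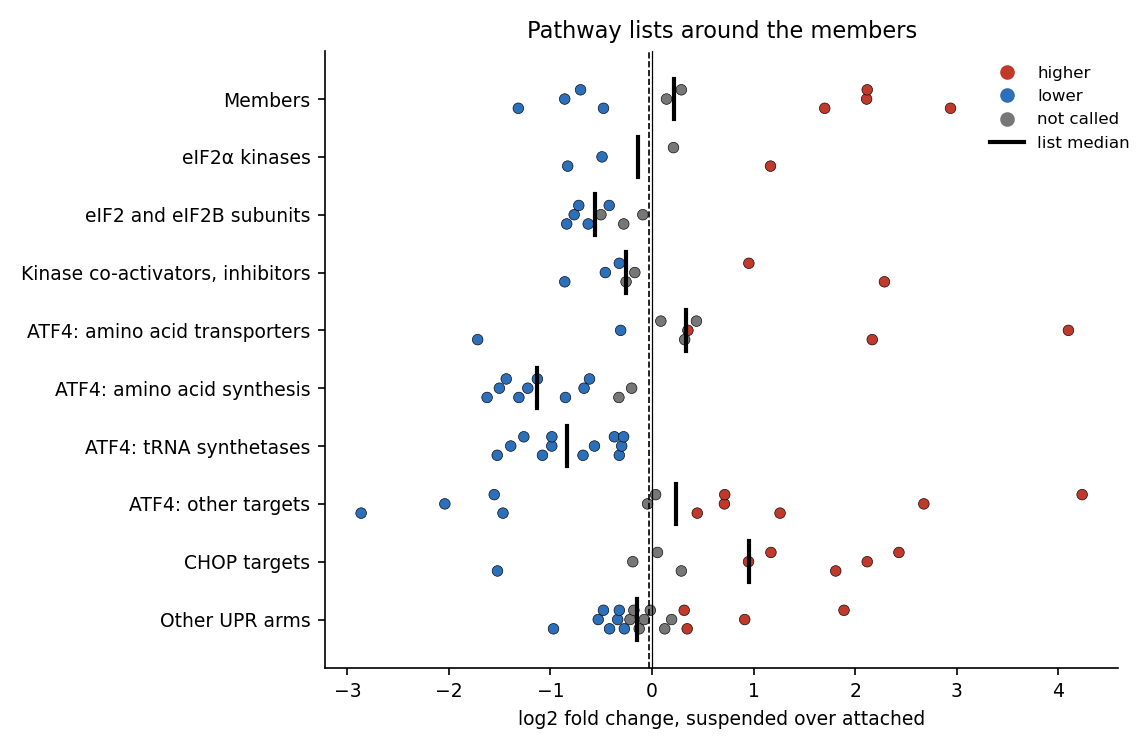
Log2 fold change (suspended over attached) of each tested gene in lists around the members, coloured by the authors' call, with a black bar at each list's median and a dashed line at the median of all tested rows (-0.03). All 12 synthetase genes lie to the left, with a median of -0.83. CHOP targets, which include Ppp1r15a, Trib3 and Bcl2l11 (labelled as deleted), have a median of 0.95.

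The labelled cell type was checked against its markers. The 7 epithelial and kidney markers reported stood above 1 FPKM in both conditions, and 2 of them were called higher, 4 lower and 1 not called (median log2 fold change -0.27). Pax2 and Pax8, kidney lineage factors, fell by 2.28 and 1.49 on the log2 scale, and Cdh1 rose by 1.08. Cdh16, a cadherin of kidney epithelium, fell from 441 to 346 FPKM (q = 0.00268, the authors' deposited table). The abundant markers changed less, with Krt8 at 606 and 752 FPKM (q = 0.0115), Krt18 at 773 and 640 FPKM (q = 0.0242) and Epcam, not called, at 261 and 253 FPKM (q = 0.761, the authors' deposited table). Markers of other cell types also moved with suspension, and their part in the member values was not tested. Of 7 leukocyte markers 2 were called, both higher: Ptprc (1.42 to 12.4 FPKM) and Cd68 (23.4 to 34.9 FPKM, the authors' deposited table). The remaining 5 were below 1 FPKM in both conditions, with Emr1 listed at 0 attached. All 5 endothelial markers were below 1 FPKM, summing to 0.353 FPKM attached and 0.298 suspended. Of 6 fibroblast markers Pdgfra alone was called, higher, with Col3a1 and Lum listed at 0 in both conditions and the list summing to 0.221 and 1.96 FPKM. The podocyte markers Synpo and Podxl rose, while Nphs1 was listed at 0 attached, and the 3 markers summed to 4.13 and 20.5 FPKM. Of 4 mitochondrial rows 3 were called, all higher, and the sum over every mitochondrial row was 31198 FPKM attached against 68368 FPKM suspended. These higher mitochondrial values stood beside each change described. Scaling to the sum over rows that are not mitochondrial or microRNA added 0.10 to every log2 fold change. No member changed direction, and none could, since the smallest fall was that of Atf4 at -0.48. Any other part of the mitochondrial values in these changes was not tested.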

How the data were processed

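RNA from 3 attached and 3 suspended libraries was sequenced. TopHat, Bowtie, Cufflinks 1.0.3 and Cuffdiff were used with build mm10, per the submitters' processing notes. Neither the annotation nor the settings and strand handling were given in the sources used here. Per the file headers, the authors gave each condition a single FPKM over its libraries, and their comparison gave the deposited log2 values, the test score, the p-value and the q-value. The columns were read as attached and suspended from condition names, given in every row, that end in A and S.

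Folds were recomputed from the FPKM without a pseudocount and differed from the deposited log2 by at most 4.0e-05. Genes count as called at the authors' q below 0.05, among the 14748 tested rows. A Benjamini-Hochberg adjustment over these rows gives slightly lower values (0.0588 against 0.0625 for Trib3), and how the deposited q were adjusted is not given in the sources used here. Depth is unknown. No test on libraries was run. The rough intervals of Trib3 and Cebpg divide the log2 fold change by the normal quantile of the deposited p. The deposited test scores of both genes are smaller than these quantiles, so the intervals may be too narrow. The members and the 19 other gene lists were chosen with earlier results of these data known, so lists are described by counts and medians only. The text names all members, paralogs and eIF2 kinases. Of each other list it names up to 4 called genes with the largest change and at least 1 FPKM in the higher condition. A few others are named for a motif, as abundant markers or as not called, after their values were seen. Of 31 planned cell type markers 3 are not reported here, 2 epithelial and 1 podocyte marker, so the marker counts and sums do not describe the whole planned lists. Of 172 list entries 1 was not matched, 1 was matched by an older name and 1 stands in a merged nuclear row. Promoters came from RefSeq GRCm38.p6, and all 10 members' deposited positions overlap the GENCODE M21 gene. A planned comparison of protein sequences was not run. Calculations were tested on simulated data. Tools were Python 3.11.15, pandas 2.3.3, NumPy 2.4.6, matplotlib 3.10.9 and SciPy 1.17.1. Alternatives covered the threshold, a 2-fold minimum, the adjustment, low values, pseudocounts of 1 and 0.1, scaling and the promoter window.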

Additional observations from a re-analysis of the deposited data

How the results depend on the processing

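The count of called members, 8, stayed 8 at q below 0.01, with a recomputed Benjamini-Hochberg adjustment, and over rows of at least 1 FPKM in both conditions. It was 5 with a 2-fold minimum, of which 1 was lower, since Atf4, Atf5 and Chac1 changed less than that. It was 0 in both directions by Bonferroni, which no row can pass because the deposited p go no lower than 5e-05. Before adjustment 9 members had a p below 0.05, these 8 and Trib3. The q of Trib3 ranged from 0.0562 to 0.0625 over the adjustments. No member changed direction under the 5 pseudocounts and scalings tried. None could, because a pseudocount keeps the sign and the scalings added at most 0.11 to each log2 fold change. Centring on the median of rows with at least 1 FPKM in both conditions added 0.11 to every log2 fold change, and Atf4 then ranged from -0.48 to -0.37 over these settings. Of 26 list counts 16 moved by over 1.5 times with a 2-fold minimum, that of the synthetase genes from 12 lower to 4. Of 26 recomputed list medians none changed sign and 4 moved by over 1.5 times. With a pseudocount of 1 that of other ATF and CREB genes went from 0.43 to 0.22. With centring, the medians went from -0.14 to -0.03 for eIF2 kinases, from -0.26 to -0.15 for genes that help or hinder them, and from -0.15 to -0.04 for the other unfolded protein response arms. With only the 250 bases before the start, 3 members in place of 4 held TGATGNAA, and the counts of members with the other motifs stayed within 1.5 times. No paired analysis was possible because the table holds 1 value per condition, and for the same reason no library could be left out. The depth and the spread between libraries, which would limit these values, are unknown.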

Other observations

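The motifs were also counted over all tested genes, as a description with no test. Of 9694 tested genes with a promoter in the RefSeq table, 26.6% were called higher and 29.0% lower in suspension. Among the 254 of them with TGATGNAA the shares were 29.9% and 27.6%, and the median log2 fold change was 0.03 against -0.04. The longer form TGATGCAAT was held by 15 tested genes, of which 3 were called higher and 7 lower. The cAMP response element TGACGTCA was held by 348 genes, with 29.3% called higher and 25.3% lower.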
